A study of Danio rerio with 3 samples.

Results

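A set of 87 genes had low transcript levels in both libraries made from nuclear pore mutant zebrafish embryos, relative to 1 wild-type library. A gene was taken when its level reached at least 5 FPKM in wild type and was at most 25% of that level in each mutant library. FPKM relates fragment counts to transcript length and to the size of the library, and so gives each transcript's share of its library. Of 25386 genes with values, 9210 reached 5 FPKM in wild type, and the 87 made up 0.945% of these. The same FPKM values chose the genes and are given below as a description, with no test. Of the 87 genes, 54 have a gene name and 33 carry a symbol that only numbers a clone or a locus.

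Both mutant libraries came from AB-strain embryos of the genotype MZ nup85-/-;nup133-/-, in which both the mother's supply and the embryo's own copies of the 2 genes are mutant. One was collected at 4.3 hours post fertilization (hpf) and has the stage tag 1k, and the other was collected at 7 hpf with dome morphology. The reference was wild-type AB embryos at 4.3 hpf, at dome, a late blastula stage. RNA was taken from dechorionated whole embryos, and neither the labels nor the headers describe the mutant alleles or the number of embryos. Genotype and stage tag differ together at 4.3 hpf, and genotype and clock age differ together at dome, so within each pair they cannot be told apart. Mothers of the mutant embryos were mutant themselves, so mutant and wild-type embryos had different parents, though the strain name is shared. Other inherited differences between these embryos cannot be told apart from genotype and were not tested. Each group is 1 library, so no difference has a replicate check. All ratios to wild type share 1 library, and a low or high reading there enters both.

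A zebrafish embryo starts on RNA that the mother stored in the egg. Its own genome becomes broadly active in the blastula, while much of the stored RNA is cleared. Nuclear pores carry all traffic between nucleus and cytoplasm, and Nup85 and Nup133 are part of the Y-shaped complex that forms their scaffold. A gene low in both mutant libraries can thus belong to the stored RNA, to the newly made RNA or to both, and these libraries do not separate the sources. In whole embryos, fewer cells of a type and less RNA per cell cannot be told apart either.

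The FPKM sums of the libraries were similar, at 397357 to 431333, which says nothing about their depth. Of the mutated genes, nup133 is itself among the 87. It stood at 0.31 FPKM in MZ embryos at 4.3 hpf, 1.91 in those at 7 hpf and 11.7 in wild type. Its partner nup85 stood at 10.35, 9.55 and 13.2 FPKM in the same order and was not among them. The other 8 genes of the Y complex were above 25% of wild type in both mutant libraries. The lowest of these was nup37, at 3.34, 4.03 and 7.63 FPKM. Of 4 genes listed for blastula identity, nanog stood at 861, 850 and 1244 FPKM and pou5f3 at 533, 1096 and 520. The histone gene h1m stood at 489, 277 and 865, and sox19b at 313, 30.1 and 129, so sox19b was at 23.4% of wild type at 7 hpf. All 4 were thus detected in every library, at differing shares of wild type.

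The 87 genes were of modest level in wild type. Their median there was 10.3 FPKM, from 5.03 to 210.2, and 49.4% lay below 10 FPKM, where 24.0% of all genes at or above 5 FPKM did. At 4.3 hpf the mutant median was 1.03 FPKM, from 0 to 45.6, and at 7 hpf it was 1.41, from 0 to 34.6. The genes took 0.0645% of all FPKM in MZ embryos at 4.3 hpf, 0.0660% at 7 hpf and 0.456% in wild type. As a share of wild type, the median gene had 12.005% at 4.3 hpf and 11.6% at 7 hpf, where the median of all genes at or above 5 FPKM had 104% and 84.7%. At most 10% of wild type was left in both mutant libraries for 23 of the 87, and over 20% in both for 8. Alone, the limit of 25% was met by 495 genes (5.37%) at 4.3 hpf and 306 (3.32%) at 7 hpf.

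**Figure D1:**
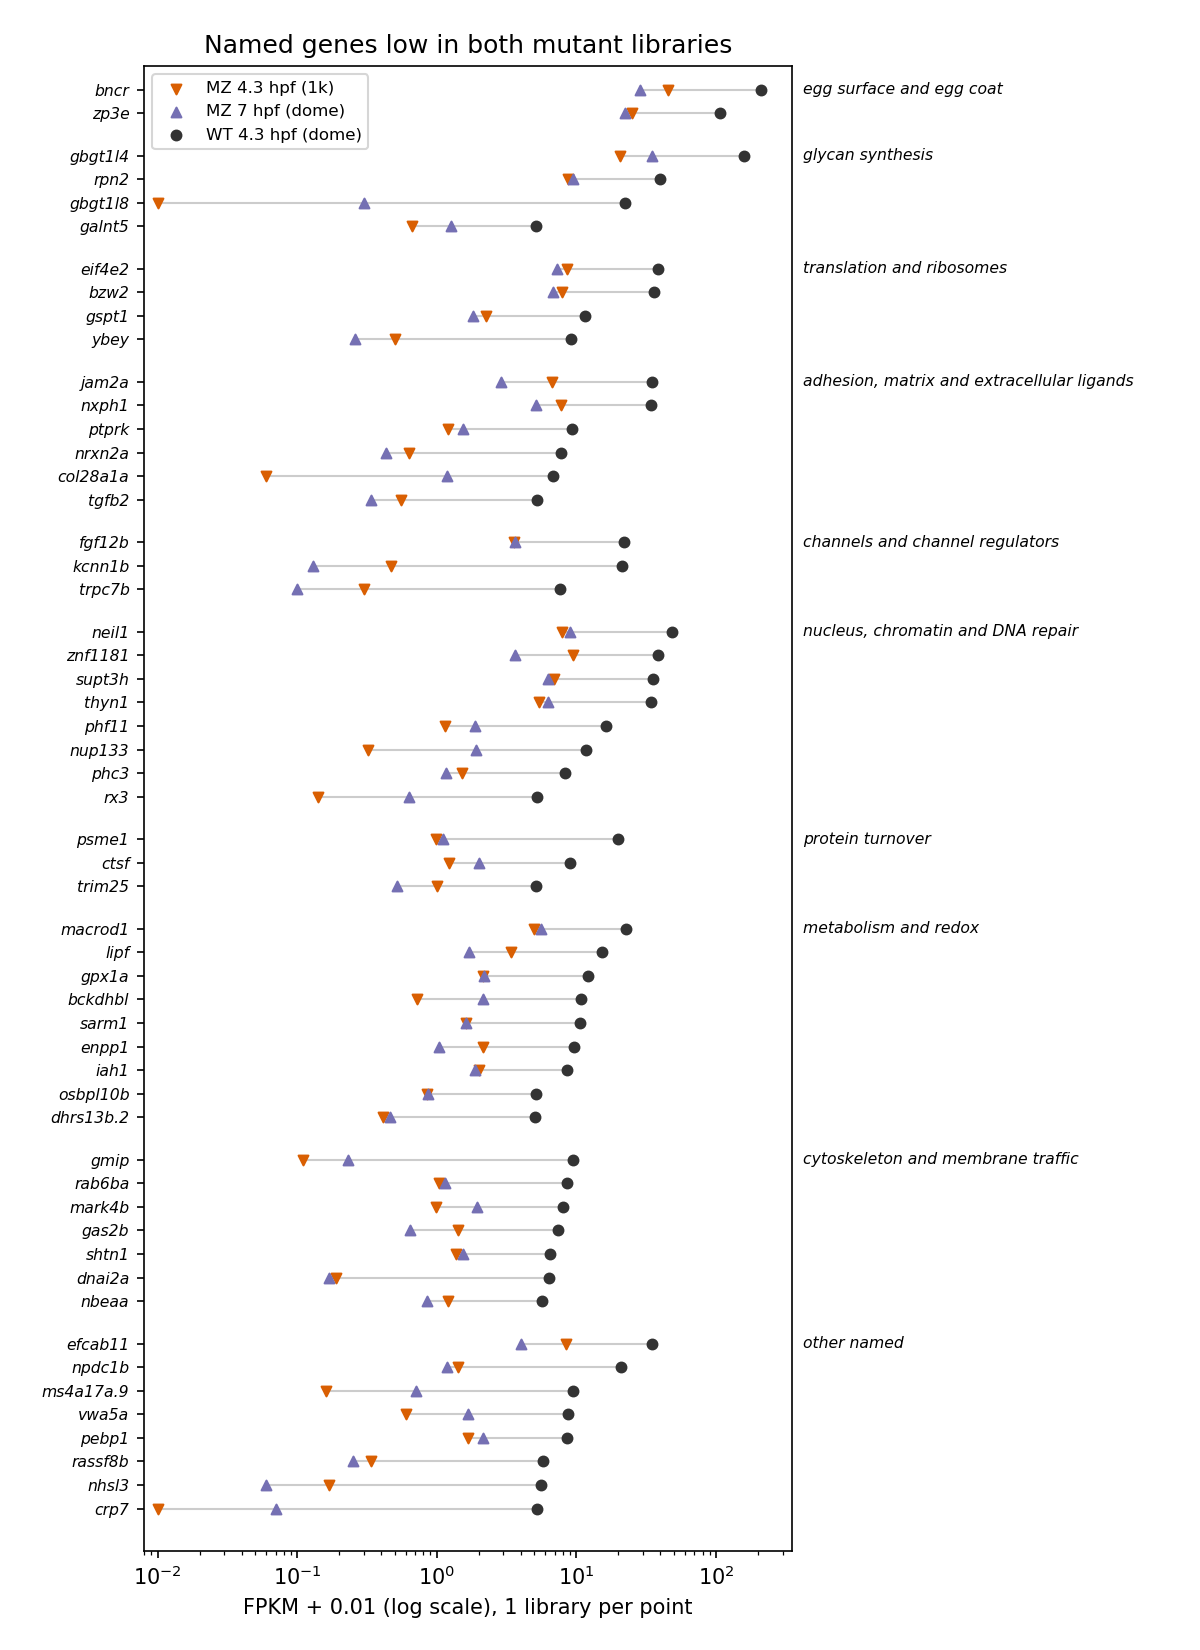
FPKM + 0.01 on a log axis for the 54 named genes, grouped by role. Each point is 1 library, with triangles pointing down for MZ 4.3 hpf, triangles pointing up for MZ 7 hpf and circles for wild type. Wild type lies to the right in every row by construction, and the mutant libraries lie close to each other for genes such as sarm1 and gpx1a and apart for nup133 and col28a1a. At 4.3 hpf nup133 and col28a1a are below 1 FPKM, where differences cannot be judged without depth.

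The named genes had varied roles, and 46 of the 54 were placed in 9 groups after their names were seen. Of the 3 genes above 100 FPKM in wild type, 2 belonged to the surface and coat of the egg. The gene bncr encodes Bouncer, a protein of the zebrafish egg membrane that lets sperm enter. It stood at 45.6 FPKM in MZ embryos at 4.3 hpf and 28.7 in those at 7 hpf, against 210.2 in wild type. The egg coat gene zp3e, of the zona pellucida family, stood at 25.1 and 22.3 FPKM in the mutant libraries, against 106 in wild type. Neither was near 0 in the mutant libraries, where they were among the most abundant of the 87.

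Glycan synthesis gave 4 genes, and 2 of them lie next to each other in the genome. The neighbours are gbgt1l4 and gbgt1l8, named after human GBGT1, a glycosyltransferase that adds N-acetylgalactosamine to a glycolipid. The first stood at 20.7 and 34.6 FPKM in the MZ 4.3 and 7 hpf libraries, against 158 in wild type. The second was listed at 0 and at 0.29, against 22.4 in wild type. So the abundant copy kept a visible level in the mutant libraries and its neighbour hardly any. The gene rpn2, for a subunit of the oligosaccharyltransferase that attaches N-glycans in the endoplasmic reticulum, stood at 8.70 and 9.44 FPKM, against 40.0 in wild type. The mucin-type glycosyltransferase gene galnt5 stood at 0.65 and 1.25, against 5.11.

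Of 4 genes for translation and ribosomes, 3 kept 15.7% to 22.4% of the wild-type level in the mutant libraries. The gene eif4e2, for a cap-binding protein that represses translation, stood at 8.58 and 7.26 FPKM in the mutant libraries, against 38.2 in wild type. The eIF5-like gene bzw2 stood at 7.89 and 6.83, against 35.9. For gspt1, which encodes the release factor eRF3, the levels were 2.25 and 1.80, against 11.45. The RNase gene ybey was further down, at 0.49 and 0.25 FPKM, against 9.09 in wild type.

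The adhesion, matrix and ligand group had 6 genes, led by jam2a. It encodes an immunoglobulin-type junctional adhesion molecule that in zebrafish takes part in the fusion of muscle precursors. It stood at 6.72 FPKM in MZ embryos at 4.3 hpf, 2.85 in those at 7 hpf and 34.6 in wild type, with log2 ratios of -2.21 and -3.21 to wild type (of FPKM + 1, as for all log2 ratios here). A pair in the group encodes partners: nrxn2a, for a neurexin of the presynaptic membrane, and nxph1, for a neurexophilin, a secreted ligand of neurexins. The neurexin gene stood at 0.62 and 0.42 FPKM, against 7.80 in wild type, and the neurexophilin gene at 7.71 and 5.15, against 34.4. The receptor phosphatase gene ptprk stood at 1.19 and 1.52, against 9.28. The growth factor gene tgfb2 and the collagen gene col28a1a were below 7 FPKM in wild type. The second had 0.05 FPKM at 4.3 hpf and 1.18 at 7 hpf, against 6.83 in wild type. The lower of these mutant values is below 1 FPKM, so their difference cannot be judged without depth.

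Of 3 genes for channels or their regulators, kcnn1b had the lowest log2 ratio of all 87 genes at 7 hpf. It encodes a small-conductance potassium channel opened by calcium. It stood at 0.46 FPKM in MZ embryos at 4.3 hpf and 0.12 in those at 7 hpf, against 21.1 in wild type, or 2.18% and 0.568% of wild type. Its log2 ratios were -3.92 and -4.30. The rank depends on the 1 FPKM added, as 4 of the 87 genes were listed at 0 at 7 hpf. The cation channel gene trpc7b stood at 0.29 and 0.09 FPKM, against 7.58 in wild type. The gene fgf12b, whose intracellular product regulates sodium channels and is not a secreted Fgf, stood at 3.56 and 3.64, against 22.1. Both channel genes were thus below 1 FPKM in each mutant library, and fgf12b was not.

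Beside nup133, the nuclear group held 7 genes. The DNA glycosylase gene neil1, of base excision repair, stood at 7.90 and 8.99 FPKM, against 48.3 in wild type. The gene supt3h, for a subunit of the SAGA coactivator, stood at 6.90 and 6.22, against 35.4, and thyn1 at 5.37 and 6.21, against 34.05. The zinc finger gene znf1181 differed between the mutant libraries, at 9.50 FPKM at 4.3 hpf and 3.60 at 7 hpf, against 38.3 in wild type. The Polycomb gene phc3 stood at 1.5 and 1.16, against 8.26, and the PHD finger gene phf11 at 1.14 and 1.88, against 16.2. The homeobox gene rx3, needed for the eye field, stood at 0.13 and 0.62 FPKM, against 5.24.

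Protein turnover was represented by psme1, ctsf and trim25. The gene psme1 encodes a subunit of the ring that caps and activates the proteasome core. It stood at 0.98 FPKM in MZ embryos at 4.3 hpf, 1.09 in those at 7 hpf and 19.8 in wild type, with log2 ratios of -3.39 and -3.31. The gene psme2, for the partner subunit of that ring, was low in all 3 libraries, at 1.70, 1.69 and 2.02 FPKM. The related psme3, whose product forms a nuclear ring of its own, stood at 227 and 258 FPKM in the mutant libraries, against 329 in wild type. The cathepsin gene ctsf stood at 1.21 and 1.99, against 8.97, and the ubiquitin ligase gene trim25 at 0.99 and 0.51, against 5.12.

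Metabolism and redox gave 9 genes, with wild-type levels of 5.03 to 22.5 FPKM and mutant levels of 0.40 to 5.60. The ADP-ribose hydrolase gene macrod1 led the group at 4.98 and 5.60 FPKM, against 22.5 in wild type. The glutathione peroxidase gene gpx1a stood at 2.13 and 2.18, against 12, and the NADase gene sarm1 at 1.60 in both mutant libraries, against 10.6. The lipase gene lipf stood at 3.41 and 1.68 FPKM, against 15.3. Mutant levels of gpx1a and sarm1 were nearly the same at both ages, whereas bckdhbl, named for a subunit of the branched-chain keto acid dehydrogenase, stood at 0.71 at 4.3 hpf and 2.12 at 7 hpf, against 10.7. The first bckdhbl value is below 1 FPKM, so this difference cannot be judged without depth. The other 4 genes were enpp1, iah1, osbpl10b and dhrs13b.2.

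The 7 genes for cytoskeleton and membrane traffic had wild-type levels of 5.67 to 9.49 FPKM. Lowest in the mutant libraries were gmip and dnai2a, the second for an intermediate chain of ciliary dynein. The first stood at 0.10 and 0.22 FPKM, against 9.49 in wild type, and the second at 0.18 and 0.16, against 6.39. The Golgi traffic gene rab6ba stood at 1.03 and 1.14, against 8.58. The remaining 4 were gas2b, mark4b, nbeaa and shtn1. Outside the 9 groups, npdc1b, named for neural proliferation and differentiation control, stood at 1.40 and 1.17 FPKM, against 20.75 in wild type. Also outside were efcab11 at 8.44 and 3.97, against 34.8, and crp7, of the C-reactive protein family, listed at 0 at 4.3 hpf and at 0.06 at 7 hpf, against 5.25.

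The zebrafish genome holds many genes as pairs of copies left by an ancient genome duplication and marked a and b. Of the 87 genes, 15 had an a or b partner in the table. Only npdc1a and mark4a among the partners reached 5 FPKM in wild type, and neither was among the 87; the other 13 could not be, whatever their mutant level. In wild type each of the 15 stood above its partner. In each mutant library, 10 of the 15 stood below it. Since the rule picked the 15 for a high wild-type and a low mutant level, this order is partly set by that choice. For some pairs, such as nrxn2a and nrxn2b, both genes were below 1 FPKM in the mutant libraries. Differences at that level cannot be judged without depth. Of the partners, 6 were below 1 FPKM in all 3 libraries, among them jam2b at 0.06, 0.12 and 0 FPKM.

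The calcium-activated channel pair had opposite orders in wild type and in MZ embryos at 4.3 hpf. The order at 4.3 hpf rests on low values, with kcnn1b at 0.46 FPKM and kcnn1a at 1.41. In MZ embryos at 7 hpf both genes of the pair were below 1 FPKM, where differences cannot be judged without depth. The partner kcnn1a stood at 1.41 FPKM in MZ embryos at 4.3 hpf and 0.87 in those at 7 hpf, against 0.09 in wild type. Among the 10 listed calcium-activated potassium channel genes with values, kcnn1b was the one with at least 5 FPKM in wild type. The partner rassf8a stood at 7.26 and 2.99 FPKM, against 1.5 in wild type, where rassf8b stood at 0.33 and 0.24, against 5.72. For npdc1a the values were 37.2 FPKM at 4.3 hpf and 8.08 at 7 hpf, against 15.1 in wild type, so it was above wild type in the younger mutant library and below it in the older one. The partners gpx1b, at 4.93 and 3.94 FPKM against 4.35 in wild type, and osbpl10a, at 6.89 and 6.22 against 4.70, were close to wild type in both mutant libraries.

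**Figure D2:**
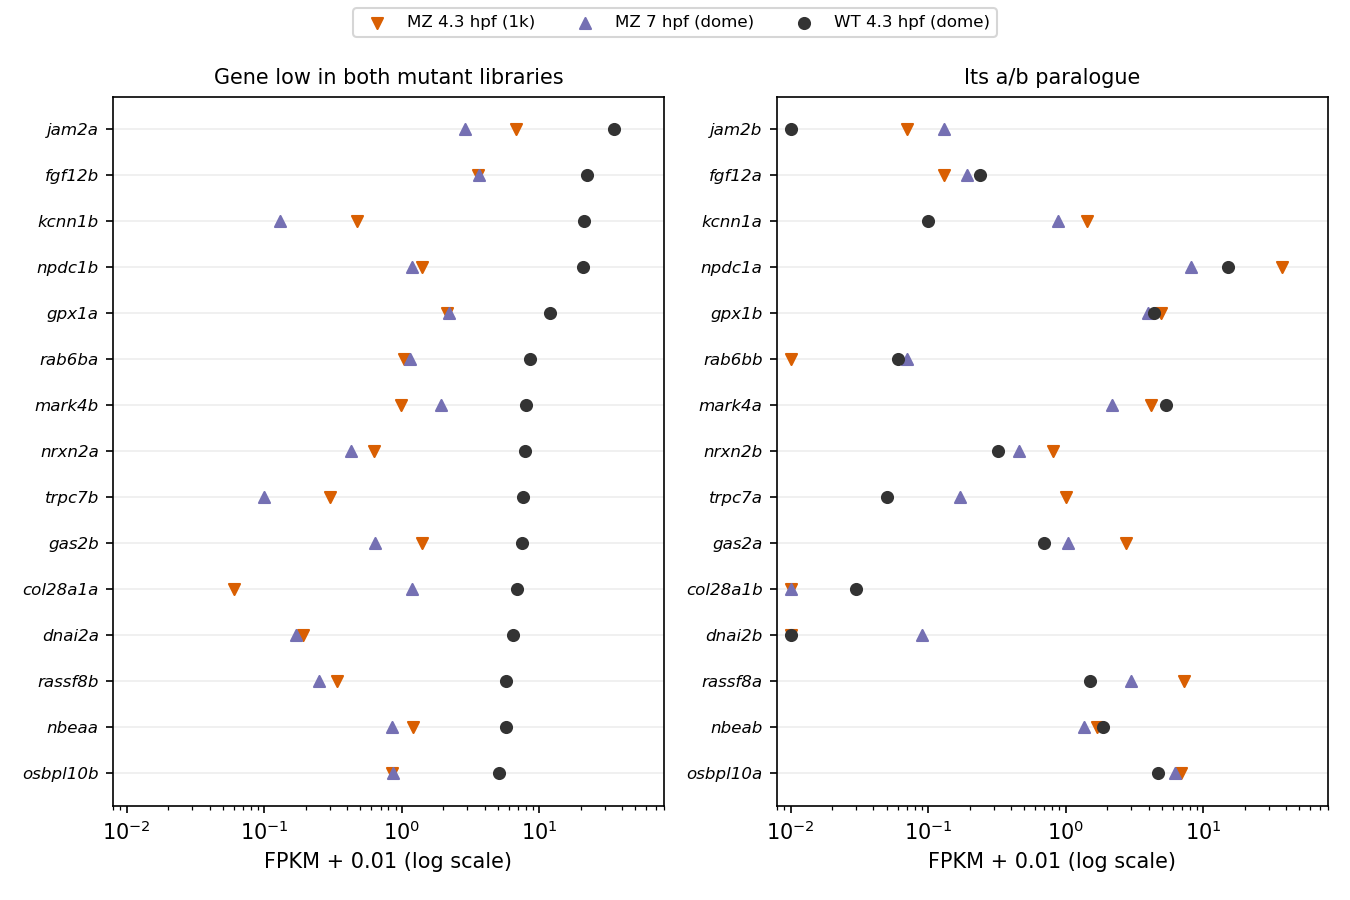
FPKM + 0.01 on a log axis for 15 genes of the set (left) and their a or b partners (right), 1 point per library. On the left, both mutant libraries (triangles) lie left of wild type (circles) by construction; on the right they lie on either side, with kcnn1a and rassf8a to the right of wild type in both mutant libraries.

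Wider gene families were read the same way, with families picked after the 87 were known. All 12 genes with a symbol starting in zp3 were in the table. Of the 11 beside zp3e, 10 were lower than wild type in both mutant libraries. The share of all genes lower in both was not counted, so nothing is read from this count. Of these 11, the 10 with at least 5 FPKM in wild type had 32.1% to 81.1% of the wild-type level at 4.3 hpf and 24.4% to 68.1% at 7 hpf. Nearest to zp3e in share of wild type were zp3.2 at 4.3 hpf and zp3c at 7 hpf. The first stood at 24.2 FPKM in MZ embryos at 4.3 hpf and 19.99 in those at 7 hpf, against 75.2 in wild type. The second stood at 30.6 and 10.3 FPKM, against 42.1. The zp3 genes thus lay at differing shares of wild type, and zp3e was the one beyond the limit in both mutant libraries. Of the other 5 gbgt1l genes, none reached 5 FPKM in wild type, and gbgt1l1 stood at 10.5 and 1.73 FPKM, against 1.02. Such families hold similar sequences, and neither labels nor headers say how reads shared by copies were divided, so their values are uncertain.

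Genes for other subunits of the oligosaccharyltransferase were further from 0 than rpn2 in share of wild type. At 7 hpf stt3a, at 24.5%, and ddost, at 27.4%, were close to rpn2, at 23.6%. The catalytic subunit genes stt3a and stt3b stood at 30.0 and 23.0 FPKM against 93.7 in wild type, and at 91.3 and 83.9 against 83.9. The gene rpn1, for the other ribophorin, stood at 109 and 105, against 184, and dad1 at 60.15 and 61.1, against 36.05. Of the other 5 genes of the eIF4E family, the 4 with at least 5 FPKM in wild type had 73.9% to 157% of that level at 4.3 hpf and 49.0% to 130% at 7 hpf. The gene gspt1l stood at 154 and 223 FPKM, against 260 in wild type, far above gspt1 in every library. The bzw1a and bzw1b genes stood at 232 to 254 FPKM at 4.3 hpf and 190 to 323 at 7 hpf, against 410 to 449 in wild type.

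**Figure D3:**
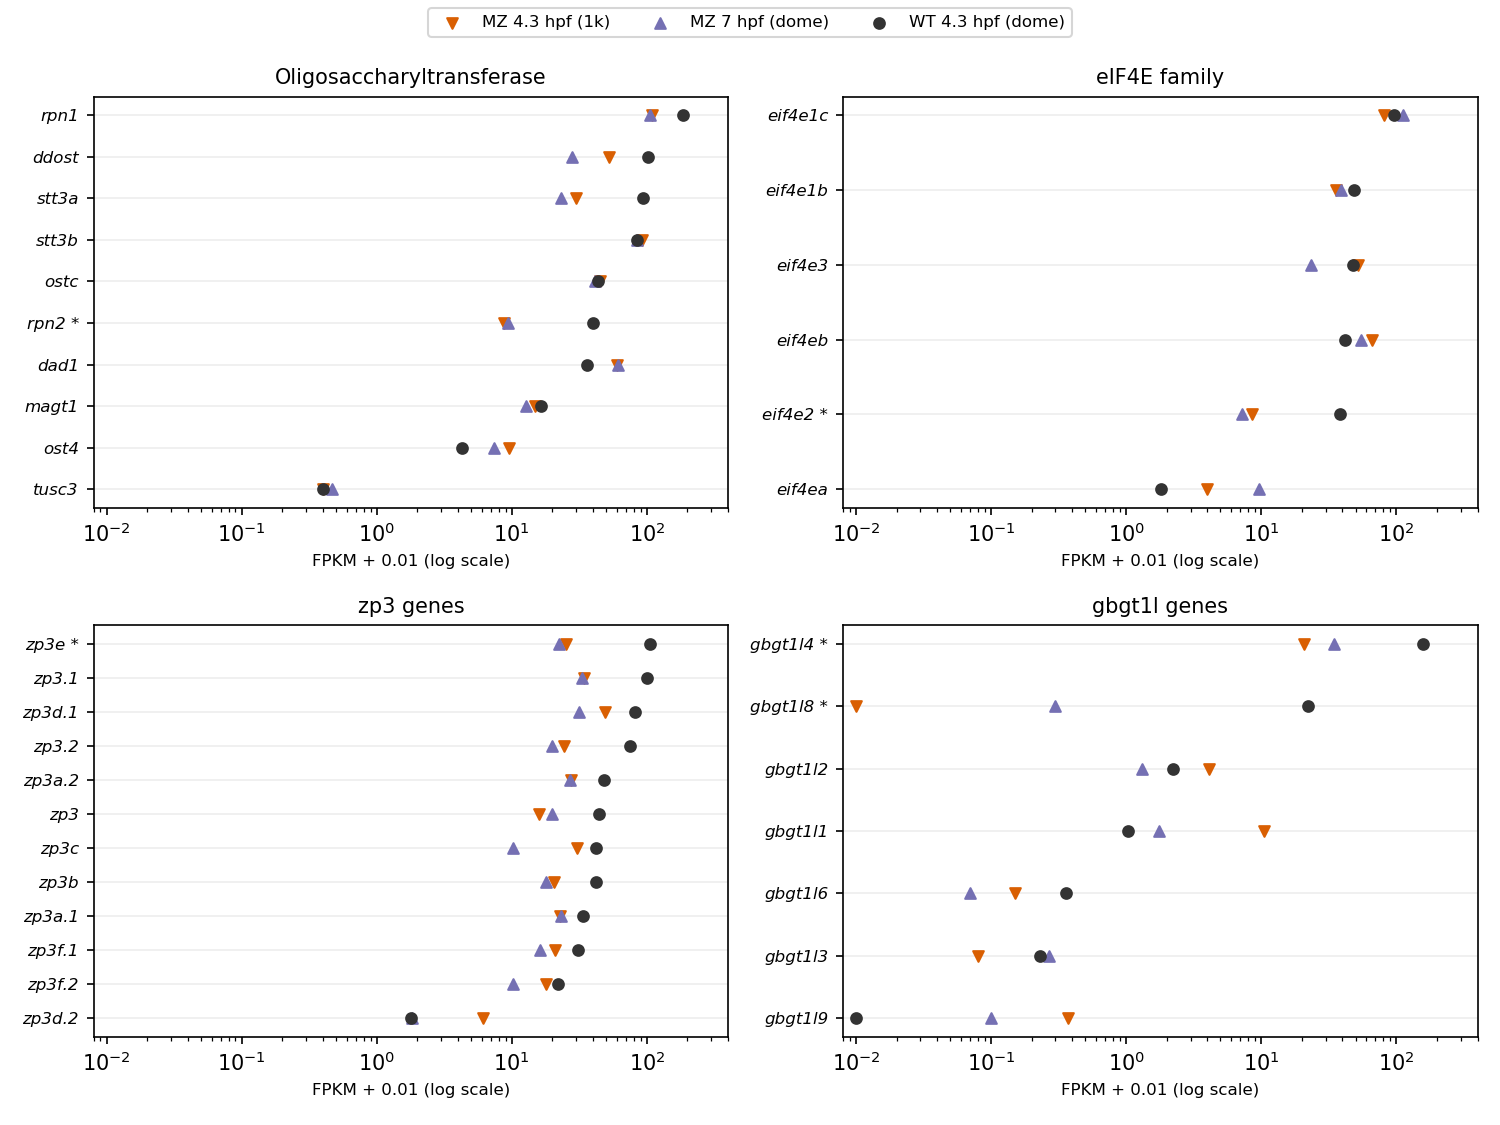
FPKM + 0.01 on a log axis for 4 gene families, 1 point per library, with the genes of the set marked by an asterisk. In the oligosaccharyltransferase and eIF4E panels, rpn2 and eif4e2 are at most 25% of wild type (circles) in both mutant libraries (triangles); in the zp3 panel most genes lie left of wild type, and in the gbgt1l panel the 2 marked genes are the most abundant in wild type.

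The remaining lists are too short for their counts to be set against the background of 0.945%. Of 20 immunoglobulin adhesion genes with values, 6 had at least 5 FPKM in wild type, and jam2a was the one at most 25% of wild type in either mutant library. Its binding partner gene jam3b stood at 8.78 and 12.9 FPKM, against 6.92 in wild type. Of 10 genes of antigen presentation by MHC class I with at least 5 FPKM, none was among the 87, which that background would also give. Of 3 such genes among forebrain factors and the npdc1 pair, npdc1b and rx3 were. The forebrain gene foxg1a missed the limit in wild type, with 0.04 and 0.05 FPKM in the mutant libraries, against 4.79. Other forebrain genes of the list, also below that limit, went different ways. Of these, hesx1 was listed at 0 and 6.79 FPKM, against 0.40 in wild type, and emx3 at 4.49 and 1.55, against 1.38. Lower in both was fezf2, at 0.25 and 0.06, against 0.58. Nothing is read about forebrain factors as a group. The relaxin receptor gene rxfp2a had 12.4 FPKM at 4.3 hpf and 1.10 at 7 hpf, against 24.1 in wild type, and so missed the limit at 4.3 hpf.

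Lists of early zygotic and maternal genes had none of the 87, and with a background of 0.945% nothing is read from that. Of 32 early zygotic genes with at least 5 FPKM in wild type, 31 were at most 25% of wild type in MZ embryos at 4.3 hpf, beside 5.37% of all such genes, and 0 at 7 hpf, beside 3.32%. Their median log2 ratios were -3.84 and 1.08. The part that this difference in zygotic transcripts plays in the levels of the 87 genes at 4.3 hpf was not tested. Of 29 maternal genes, 0 were at most 25% of wild type at 4.3 hpf and 4 at 7 hpf, beside the same 5.37% and 3.32%, with median log2 ratios of 0.03 and -0.85. The median log2 ratios of the 87 genes were -2.46 at 4.3 hpf and -2.33 at 7 hpf. Those of all genes with at least 5 FPKM in wild type were 0.06 and -0.23, and those of all 14306 genes averaging 1 FPKM or more were 0.16 and -0.05. Both lists were written with earlier results of these data known.

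Between the mutant libraries, the 87 genes had no common direction. The MZ 7 hpf level was above the MZ 4.3 hpf level for 45 genes, below it for 39 and equal for 3, and the median log2 ratio of 7 hpf to 4.3 hpf was 0.01. At least 4-fold higher at 7 hpf were 5 genes, where 7.52% of the 14306 genes were, and 0 were at least 4-fold lower, where 4.68% were. At 2-fold, 12 were higher and 3 lower, where the shares of all genes were 13.8% and 22.2%. The 3 lower ones were jam2a, znf1181 and si:dkey-84o3.7. For jam2a the log2 ratio was -1.004, at the limit of 2-fold. It ran from -1.37 when scaled on proteasome genes to -0.58 with a pseudocount of 5 FPKM, so its place depends on the processing. The limit of 25% of wild type holds both libraries down, so it also bounds how far they can differ.

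**Figure D4:**
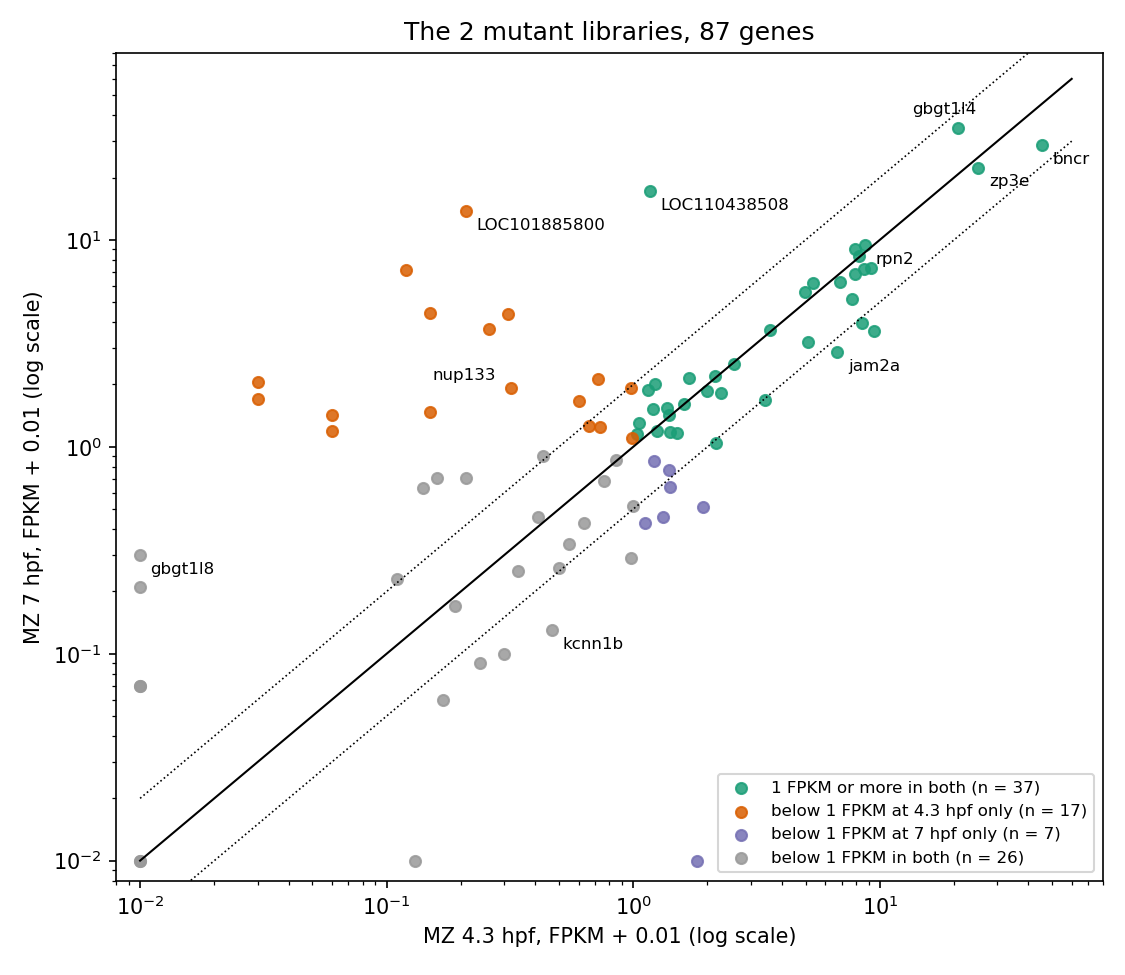
MZ 7 hpf level against MZ 4.3 hpf level for the 87 genes, both as FPKM + 0.01 on log axes, 1 point per gene. The solid line marks equal levels and the dotted lines a 2-fold difference of the plotted values. Colours split the genes at 1 FPKM; the 37 genes at or above it in both libraries lie mostly along the line, and the 17 below it at 4.3 hpf alone lie above the line, led by LOC101885800.

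The genes split by how much was left in the mutant libraries. At least 1 FPKM remained in both for 37 genes, whose median levels were 3.41 FPKM at 4.3 hpf, 2.85 at 7 hpf and 22.1 in wild type. For 26 of these 37 the mutant libraries lay within 1.5-fold of each other, or 70.3%, where 46.7% of all 12259 genes at or above 1 FPKM in both did; the limit of the rule bears on this share, and nothing is read from it. Under 1 FPKM in both lay 26 genes, with medians of 0.215, 0.245 and 6.515 FPKM. Under 1 FPKM at 4.3 hpf alone lay 17 genes, with medians of 0.25, 1.91 and 11.7, and at 7 hpf alone 7 genes. Listed at 0 in both mutant libraries were LOC101884927 with 6.75 FPKM in wild type and si:dkey-125e8.4 with 5.63.

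Of the 87 genes, those at least 2-fold higher at 7 hpf than at 4.3 hpf were mostly unnamed ones, where 37.9% of the 87 are unnamed. The share of unnamed ones among all genes with such a difference was not counted. All 5 genes at least 4-fold higher at 7 hpf, and 10 of the 12 at least 2-fold higher, carry a symbol that only numbers a clone or locus; the other two are nup133 and col28a1a. The most abundant was LOC101885800, at 0.20 FPKM in MZ embryos at 4.3 hpf, 13.8 in those at 7 hpf and 95.3 in wild type. LOC110438508 stood at 1.16, 17.1 and 72.3 FPKM in the same order. LOC100538142 stood at 0.11, 7.17 and 45.6, and zgc:195170 at 0.14, 4.43 and 43.6. At 7 hpf these 4 genes were still at 10.2% to 23.7% of wild type.

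Other unnamed genes were low at similar levels in both mutant libraries. LOC100334068 had 9.18 FPKM at 4.3 hpf and 7.31 at 7 hpf, against 69.6 in wild type. LOC100334195, with 1 other measured gene between them in the reference order, stood at 1.38 and 0.76, against 13.4. The gene between them, LOC100538023, stood at 46.2 and 25.8 FPKM, against 25.9 in wild type. LOC110437857 stood at 8.20 and 8.36, against 56.7, and LOC110440070 at 0.23 and 0.08, against 10.3. The unnamed 33 are not given a function here, since neither the table nor the reference annotates one.

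Properties that the rule did not use directly also set the 87 beside the 9210 genes with at least 5 FPKM in wild type. More of the 87 lay below 10 FPKM there, 49.4% against 24.0%, and the shares given next were not matched for level. The gene IDs of 18 of the 87 (20.7%) were absent from the RefSeq gene table of the assembly GRCz12tu, where 2.75% of the 9210 were absent. The other 69 were all listed there as protein-coding. Symbols of the table that only number a clone or locus made up 46.0% of the 87 and 16.1% of the 9210, and for 7 of the 87 the RefSeq table gave a gene name, bncr, zp3e and gbgt1l8 among them. Symbols starting in znf made up 1.15% of the 87 and 1.18% of the 9210. In the gene order of that assembly, 2 of the 69 placed genes, the gbgt1l neighbours, lay next to another of the set, and 6 lay within 5 measured genes of one. The spacing of the 9210 genes was not counted in this way, so nothing is read from these counts. The further pairs were LOC100334068 with LOC100334195 and bzw2 with nhsl3. With rbbp4 between bzw2 and nhsl3 at 32.1 and 49.7 FPKM, against 28.6 in wild type, the genes between these pairs were not all low.

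The limits of the rule pass between genes with nearly the same values. Just inside 5 FPKM in wild type lay dhrs13b.2, galnt5 and trim25, at 5.03, 5.11 and 5.12 FPKM, and just outside LOC110439257, si:ch211-281p14.2 and kng1, at 4.94, 4.82 and 4.81. Just inside 25% of wild type at 4.3 hpf lay znf1181, efcab11 and zp3e, at 24.8%, 24.2% and 23.6%, and just outside mrps34, dpydb and si:ch211-262h13.5, at 25.02%, 25.03% and 25.4%. At 7 hpf macrod1, pebp1 and LOC108183679 lay inside, at 24.86%, 24.85% and 24.7%, and dap1b, ccdc90b and arl13a outside, at 25.004%, 25.9% and 26.6%. Of the genes outside, dap1b was the most abundant, at 21.3 FPKM at 4.3 hpf and 29.1 at 7 hpf, against 116 in wild type.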

How the data were processed

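The authors deposited 1 table with a column of FPKM for each library, with 2 decimals. The tools RSEM 1.2.8, Bowtie2 2.2.5 and Trimmomatic 0.36 and the build GRCz11 are listed, without their roles, per the submitters' processing notes. Labels and headers do not state poly(A) selection, strand or how reads of near-identical copies were divided. FPKM hold no counts, so depth is unknown and no interval or test was made. Of 26437 rows, 1051 without values were left out.

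The members and lists were chosen with earlier results of these data known. Ratios are percent of wild type and log2 of FPKM + 1. Named are the 15 most abundant members in wild type, the 15 with at least 10 FPKM in wild type and the lowest mutant share, members of the 10 fixed lists, the 3 genes on each side of each limit, and a/b partners. Symbols that only number a clone were optional. Genes of families and roles not in the lists were chosen after their values were seen. RefSeq's GRCz12tu table gave names, gene types and gene order only. Protein sequences and lengths are not used here. The code of the rule was checked on simulated data, with differences beyond the limit planted in genes of at least 10 FPKM in wild type. Those data held counting noise alone, so the check does not bear on lower genes or on variation between libraries. Python 3.11.15, numpy 2.4.6, pandas 2.3.3 and matplotlib 3.10.9 were used.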

Additional observations from a re-analysis of the deposited data

How the results depend on the processing

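With 1 library per group, the number of genes depends mostly on the limits. It was 167 with a wild-type minimum of 2 FPKM and 44 with 10 FPKM. It was 369 when the allowed share of wild type in both mutant libraries was 2 times as large and 31 when it was 2 times smaller. With 1 FPKM added to every value before the ratio, 55 of the 87 genes were left, since this compresses ratios of low genes. With 0.1 FPKM added, 82 were left, and 69 when genes were limited to those that RefSeq lists as protein-coding. The 18 others are absent from that listing, so their type is not known from it. Scaling to equal sums gave 84 genes, 83 of them among the 87. Scaling by the median of ratios gave 102, with all 87 among them, and scaling on 41 proteasome genes gave 110, with 85 among them. That last scaling moved the median log2 ratio of all measured genes at 7 hpf to -0.40, where it was -0.05 as deposited, and the median of ratios moved it at 4.3 hpf to 0.02 from 0.16.

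A pseudocount of 5 FPKM moved the median log2 ratio of the 87 genes to -1.37 at 4.3 hpf and -1.31 at 7 hpf, and one of 0.1 FPKM moved it to -2.96 at 7 hpf. The median of 7 hpf against 4.3 hpf ran from -0.23 to 0.10 over the alternatives and took both signs. Single genes were followed for a set of 46, which is not the set of 46 grouped by role. It holds the members highest in wild type or lowest in mutant share, members of the lists, nup85 and the genes at each limit. Some of these are unnamed or outside the 87. Among these 46, no log2 ratio of at least 1 in size took the other sign, and no scaling moved any by 1.5-fold. A pseudocount cannot change the sign of a ratio, and each scaling multiplies a whole library by 1 factor. Both outcomes were thus largely set in advance, and nothing is read from them. The pseudocount mattered more. One of 5 FPKM moved the ratio to wild type by at least 1.5-fold for 29 of the 46 at 4.3 hpf and 27 at 7 hpf. One of 0.1 FPKM did so for 23 and 16. For kcnn1b at 7 hpf the log2 ratio ran from -6.59 with 0.1 FPKM to -2.35 with 5 FPKM. Differences below 1 FPKM cannot be judged without depth, which limits the 26 genes below that level in both mutant libraries. No paired analysis was possible because each group has 1 library.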

Other observations

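Genes that neighbour the mutated genes in the GRCz12tu order were read as a further description. Next to nup133 lie taf5l, at 48.9 FPKM in MZ embryos at 4.3 hpf and 13.1 in those at 7 hpf, against 37.7 in wild type, and acta1a, below 1 FPKM in all 3 libraries. Within 5 measured genes of nup133 on either side, no other gene was among the 87. Of these neighbours only akt3b, ltv1 and taf5l reached 5 FPKM in wild type, and the rest could not be, whatever their mutant level. The largest difference there was in capn9, a calpain gene, at 0.04 and 54.5 FPKM, against 0.86. Around nup85, sumo2b stood at 44.85 and 88.35 FPKM, against 98.1 in wild type, and jpt1b at 164 and 100.5, against 255. None of the 10 neighbours was among the 87, but only sumo2b and jpt1b reached 5 FPKM in wild type. Below that limit, si:ch73-59f11.3 stood at 0.31 and 0.13 FPKM, against 1.99.

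The genes directly on both sides of psme1, kcnn1b and jam2a were read too. Beside psme1 lie pck2, at 0.37 and 2.33 FPKM, against 0.61 in wild type, and the gene that RefSeq calls fitm1, at 0.03 and 1.12, against 0.36. The deposited table gives the symbol fitm1 to another gene ID. Beside kcnn1b, ccdc124 stood at 76.1 and 31.85 FPKM, against 65.6 in wild type, and si:ch73-61d6.3 at 3.67 and 1.05, against 1.56. Beside jam2a, the mitochondrial ribosomal gene mrpl39 stood at 14.9 and 15.4 FPKM, against 12.2 in wild type, and atp5j at 9.96 and 15.5, against 5.58.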
